A study of Mus musculus with 4 samples.

Results

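The CDC25 phosphatases and the kinase-cyclin pairs they switch on were followed in early mammary tumours of Cdc25a;neu mice, in which an MMTV-cdc25a transgene is added to MMTV-neu, and of neu mice, which carry MMTV-neu alone. The genes are Cdc25a, Cdc25b, Cdc25c, Pkmyt1, Cdk1, Cdk2, Ccne1, Ccne2 and Ccna2, and a probe was taken as a member when its array gene name was one of these symbols or a former one. This gave 11 of 41174 probes outside controls, for 8 of the 9 genes, with Cdk1 listed as Cdc2a and Pkmyt1 under AW209059. Another 6 probes belong to these genes by the array's accession or description column, among them both probes of Ccne2, and they are described beside the others but not counted with them. All 17 probes were measured well enough to be kept, meaning that on 2 or more of the 4 arrays either channel was well above background.

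Both groups were female FVB/N mice aged 26 weeks with T1 tumours, the early stage under 1 cm, and all 4 tumours carried the neu transgene, the rodent form of the receptor tyrosine kinase Erbb2. The mouse mammary tumour virus promoter (MMTV), active mainly in mammary epithelium, drives both transgenes, and the labels say neither which species the cdc25a sequence comes from nor how much of the transcript it holds. Each of 2 Cdc25a;neu tumours was hybridised together with 1 neu tumour, on 2 two-colour Agilent arrays with the dyes swapped, so there are 2 pairs of mice and 4 arrays. The neu mice are the control, and no tumour without neu was used here.

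CDC25 phosphatases remove inhibitory phosphates that the kinases Wee1 and Pkmyt1 place on cyclin-dependent kinases. CDK2 works with E cyclins at entry into DNA synthesis and with cyclin A during it, and CDK1 works with A and B cyclins to drive mitosis. CDC25A acts on both kinases, whereas CDC25B and CDC25C are known mainly for the entry into mitosis. Much of this control acts on the proteins, by phosphorylation and destruction, and the arrays measured RNA alone.

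Log2 ratios are Cdc25a;neu over neu after loess normalisation, and the mean over the 2 pairs was tested against 0 with limma and Benjamini-Hochberg adjustment over all 37174 kept probes. No member probe passed an adjusted p of 0.05, and of all kept probes 0% did (0 of 37174, with a lowest adjusted p of 0.245 by limma). At an unadjusted p under 0.05, 1 of the 11 member probes fell below the threshold, with a positive ratio, against 9.43% of all kept probes (3505), of which 3.74% had a positive and 5.69% a negative ratio as shares of all kept probes. With other processing, 1109 probes passed after median centring, none of them (0) a member. With the 4 arrays taken as units 950 passed, again none (0) a member, but this counts dye-swapped arrays of the same 2 pairs as replicates. Signals given for each mouse are normalised values averaged over its 2 arrays, they include an added offset of 50, and they compare mice on the same probe only. Mice of different pairs lay on different arrays, so a statement that the groups overlapped or not also compares arrays. In bulk tumour RNA, fewer cells of a type and less RNA per cell cannot be told apart.

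Cdc25a, whose transgene sets the groups apart, differed little between them on the probes described here. The Cdc25a probe A_51_P519319 had signals of 156.5 and 169.7 in the Cdc25a;neu mice, against 147 and 168.8 in the neu mice. The groups overlapped, since neu mouse 2 lay above Cdc25a;neu mouse 1. The log2 ratios were 0.09 in pair 1 and 0.01 in pair 2, with a mean of 0.05 ± 0.06 (SD over 2 pairs, limma adjusted p = 0.784), and the 95% interval ran from -0.12 to 0.22. On the 4 arrays the ratio was positive on 3 and negative on the array of pair 2 with Cdc25a;neu in Cy5, where it was -0.06.

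The second Cdc25a probe, A_52_P282729, is listed on the array as 6030497P19 and matches Cdc25a by its accession. It had signals of 136.1 and 128.3 in the Cdc25a;neu mice, against 123.2 and 121 in the neu mice. Both Cdc25a;neu mice lay above both neu mice, as they did for 8.46% of all kept probes. On the array of pair 2 with Cdc25a;neu in Cy5 this probe had a ratio of -0.01, and on the other arrays a positive one. Its mean log2 ratio was 0.11 ± 0.04 (SD over 2 pairs, limma adjusted p = 0.582). That size depends on the processing: it was 0.21 with processed signals, 0.23 in the deposited value table and 0.07 without the Cy3 array of pair 2, positive in each. The files used here do not place these probes on the transcript, so whether either reads transgene RNA is not known, and their values do not check the genotype labels.

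Cdc25b, the phosphatase known for starting the activation of CDK1 at the centrosome, had 3 probes. The probe named for it, A_51_P474431, had signals of 254.3 and 263.2 in Cdc25a;neu mice, against 251.1 and 291 in neu mice. The groups overlapped, and the mean log2 ratio was -0.06 ± 0.12 (SD over 2 pairs, limma adjusted p = 0.784). The dye orientations disagreed on this probe: in pair 2 its ratio was -0.48 with Cdc25a;neu in Cy5 and 0.19 with Cdc25a;neu in Cy3. That gap of 0.67, and one of 0.28 in pair 1, compare with median gaps over all kept probes of 0.11 in pair 1 and 0.11 in pair 2.

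Another Cdc25b probe, A_52_P612382, had signals of 568.8 and 902.1 in Cdc25a;neu mice, against 551 and 937.3 in neu mice. Here the mice of pair 2 were high and those of pair 1 low in both genotypes, and the mean log2 ratio was 0.00 (-0.0047; limma adjusted p = 0.983). The third probe, A_52_P615877, was not well above background in neu on any array (0 of 4), so it gives no ratio that can be read as a measured difference.

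Cdc25c, which acts on CDK1 and cyclin B at mitosis, had small positive ratios. Probe A_51_P279575 had signals of 123.8 and 111.4 in Cdc25a;neu mice, against 118.8 and 105.2 in neu mice. Within each pair the Cdc25a;neu mouse was the higher, on all 4 arrays, but the groups overlapped. The mean log2 ratio was 0.07 ± 0.02 (SD over 2 pairs, limma adjusted p = 0.677), with a 95% interval of -0.08 to 0.22. Probe A_52_P25599, which shares its accession, gave a mean log2 ratio of 0.10 (limma adjusted p = 0.626) and a negative ratio on 1 array.

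Pkmyt1, the membrane-bound kinase that opposes CDC25 on CDK1, had signals of 317 and 433.3 in Cdc25a;neu mice, against 288.5 and 348.2 in neu mice. The ratio was positive on all 4 arrays, from 0.09 to 0.33, yet the groups overlapped because neu mouse 2 lay above Cdc25a;neu mouse 1. Its log2 ratios were 0.14 in pair 1 and 0.32 in pair 2, with a mean of 0.23 ± 0.13 (SD over 2 pairs, limma adjusted p = 0.535). Of all kept probes, 12.3% had a mean ratio at least as far from 0.

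Cdk1, the kinase of mitosis, gave opposite directions on its 2 probes. Probe A_51_P450033 had signals of 317.1 and 293 in Cdc25a;neu mice, against 245.8 and 258.7 in neu mice. Both Cdc25a;neu mice lay above both neu mice, and the ratio was positive on all 4 arrays, from 0.08 to 0.43. The mean log2 ratio was 0.27 ± 0.13 (SD over 2 pairs), with a 95% interval of 0.03 to 0.52. It was the 1 member probe with an unadjusted p under 0.05, and its adjusted p by limma was 0.519.

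Probe A_52_P339954 of Cdk1 had signals of 180.8 and 232.5 in Cdc25a;neu mice, against 197.4 and 299.9 in neu mice. The ratio was negative on all 4 arrays, from -0.44 to -0.08, while the groups overlapped across the pairs. The mean log2 ratio was -0.25 ± 0.17 (SD over 2 pairs, limma adjusted p = 0.544). The difference between the 2 probes, A_51_P450033 minus A_52_P339954, was 0.49 in pair 1 and 0.55 in pair 2, and it lay between 0.38 and 0.71 on the single arrays.

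Of 3737 genes with several kept probes, 112 (3%) had probes that differed at least as far as those of Cdk1, and 1.58% did so in both pairs in the same direction. The median difference over those genes was 0.09 in size. A direction for Cdk1 RNA as a whole therefore depends on the probe, and the files used here do not place the probes on the transcript.

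Cdk2, the partner of cyclins E and A, also had 2 probes. Probe A_51_P266521 had signals of 168.9 and 160.6 in Cdc25a;neu mice, against 152.7 and 218.4 in neu mice. Neu mouse 2 stood high, but on 1 of its arrays: its log2 signal was 8.08 on the array with Cdc25a;neu in Cy5 and 7.46 on the dye swap, where the other 3 mice had 7.13 to 7.42 on their arrays. The log2 ratio was 0.15 in pair 1 and -0.44 in pair 2, and the dye orientations of pair 2 gave -0.72 and -0.17, a gap of 0.55. Without the Cy5 array of pair 2 the mean was -0.01. With all arrays the mean was -0.15 ± 0.42 (SD over 2 pairs, limma adjusted p = 0.822), and the 95% interval, -0.77 to 0.47, was the widest stated here for a member.

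Probe A_52_P651298 of Cdk2 had signals of 109.3 and 100.3 in Cdc25a;neu mice, against 104.1 and 93.5 in neu mice. The ratio was positive on all 4 arrays, from 0.06 to 0.14, and the groups overlapped. The mean log2 ratio was 0.09 ± 0.02 (SD over 2 pairs, limma adjusted p = 0.635). The difference between the Cdk2 probes was 0.08 in pair 1 and -0.54 in pair 2, and 15.5% of genes with several probes had a mean difference at least as far from 0.

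The promoters of both kinases are shown because cell cycle genes are known to be transcribed through E2F sites, CCAAT boxes and the TTTGAA element. The RefSeq promoter table (GRCm38.p6) held an entry for 5 of the 9 genes (Cdc25a, Cdc25b, Cdk1, Cdk2 and Ccne1). Each sequence is the 150 bases before the annotated start, 5′ to 3′ on the gene's strand, with matches in capitals on either strand. The Cdk1 window is chr10:69352913-69353062 and the Cdk2 window chr10:128705052-128705201, both on the minus strand.
Cdk1: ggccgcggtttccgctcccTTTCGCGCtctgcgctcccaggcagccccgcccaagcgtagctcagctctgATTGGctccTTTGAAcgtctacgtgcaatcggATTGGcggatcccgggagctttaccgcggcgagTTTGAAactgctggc
Cdk2: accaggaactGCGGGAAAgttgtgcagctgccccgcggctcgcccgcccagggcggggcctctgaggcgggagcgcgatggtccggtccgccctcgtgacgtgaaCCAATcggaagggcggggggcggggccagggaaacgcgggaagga
The search covered 250 bases before the start for CCAAT and for TTTGAA and for the E2F letters TTTCGCGC or TTTGGCGC or TTTCCCGC or TTTGCCGC, with no match overlapping another in these promoters. CCAAT was found in 33.8% of 32851 promoters, TTTGAA in 16% and E2F letters in 1.86%. The Cdk1 promoter held 3 CCAAT matches, 2 TTTGAA matches and 1 E2F match, and the Cdk2 promoter held 1 CCAAT and 1 E2F match. Cdc25a held 2 CCAAT matches and 1 E2F match, Cdc25b held 1 CCAAT match, and these letters were not found in the Ccne1 window. A match describes the letters only, and no binding was measured.

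Ccna2, which encodes the cyclin A of dividing somatic cells, had the largest mean ratio among the member probes. Its signals were 1347 and 1231 in Cdc25a;neu mice, against 956.2 and 1110 in neu mice. By these averaged signals both Cdc25a;neu mice lay above both neu mice, and the ratio was positive on all 4 arrays, from 0.09 to 0.56. On single arrays the mice overlapped. Neu mouse 2 had a log2 signal of 10.32 on its array with Cdc25a;neu in Cy3. On their arrays with Cdc25a;neu in Cy5, Cdc25a;neu mouse 1 had 10.23 and Cdc25a;neu mouse 2 had 10.13. The log2 ratios were 0.49 in pair 1 and 0.15 in pair 2. Their mean was 0.32 ± 0.24 (SD over 2 pairs, limma adjusted p = 0.547), a fold of 1.25, with a 95% interval on the log2 scale of -0.06 to 0.70. Of all kept probes, 6.93% had a mean ratio at least as far from 0.

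Ccne1, the cyclin that brings CDK2 to the start of DNA synthesis, showed opposite pairs. Probe A_51_P408946 had signals of 641.6 and 985.9 in Cdc25a;neu mice, against 706 and 875.7 in neu mice. The mice of pair 2 were high in both genotypes, and the spread between pairs exceeded that between genotypes. The log2 ratios were -0.14 in pair 1 and 0.17 in pair 2, with a mean of 0.02 ± 0.22 (SD over 2 pairs, limma adjusted p = 0.97). Probe A_52_P796682 had signals of 146.1 and 170.1 in Cdc25a;neu mice, against 151.4 and 168.3 in neu mice, and log2 ratios that averaged -0.02 ± 0.05 over the pairs (SD, n = 2), with a limma adjusted p of 0.923.

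Ccne2, the other E cyclin, had no probe under its own symbol and was read by 2 probes near background. Probe A_52_P58560, which carries its accession, had signals of 82.81 and 84.47 in Cdc25a;neu mice, against 85.84 and 86.49 in neu mice. Both Cdc25a;neu mice lay below both neu mice, as they did for 11.4% of all kept probes. The mean log2 ratio was -0.04 (limma adjusted p = 0.784). The arrays split by dye, with 0.01 and 0.14 where Cdc25a;neu was in Cy5 and -0.11 and -0.20 where it was in Cy3. The mean lay between -0.16 and 0.04 under other processing, turning positive without the Cy3 array of pair 2. It was well above background on 3 of 4 arrays in Cdc25a;neu and on 4 of 4 in neu, while A_52_P58558, which shares the accession, was so on 2 arrays in Cdc25a;neu and 1 in neu.

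**Figure D1:**
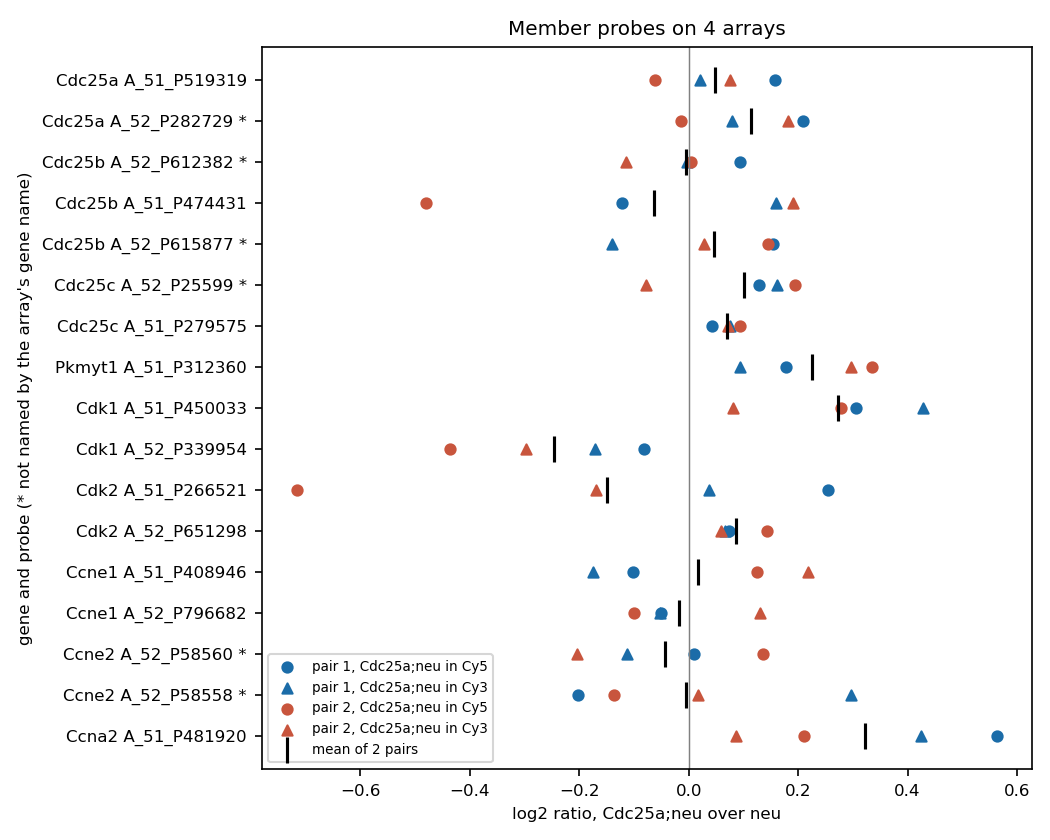
Log2 ratio (Cdc25a;neu over neu, horizontal axis) of the 17 probes of the 9 genes, with 1 point for each of the 4 arrays, colour for the pair, shape for its dye (Cy5 or Cy3 for Cdc25a;neu), and a bar for the mean of the 2 pairs. The points of Cdk1 probe A_51_P450033, Pkmyt1 and Ccna2 all lie right of 0, those of Cdk1 probe A_52_P339954 all left of it, and those of Cdc25b probe A_51_P474431 and Cdk2 probe A_51_P266521 spread to both sides, and A_52_P615877 was not well above background in neu.

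**Figure D2:**
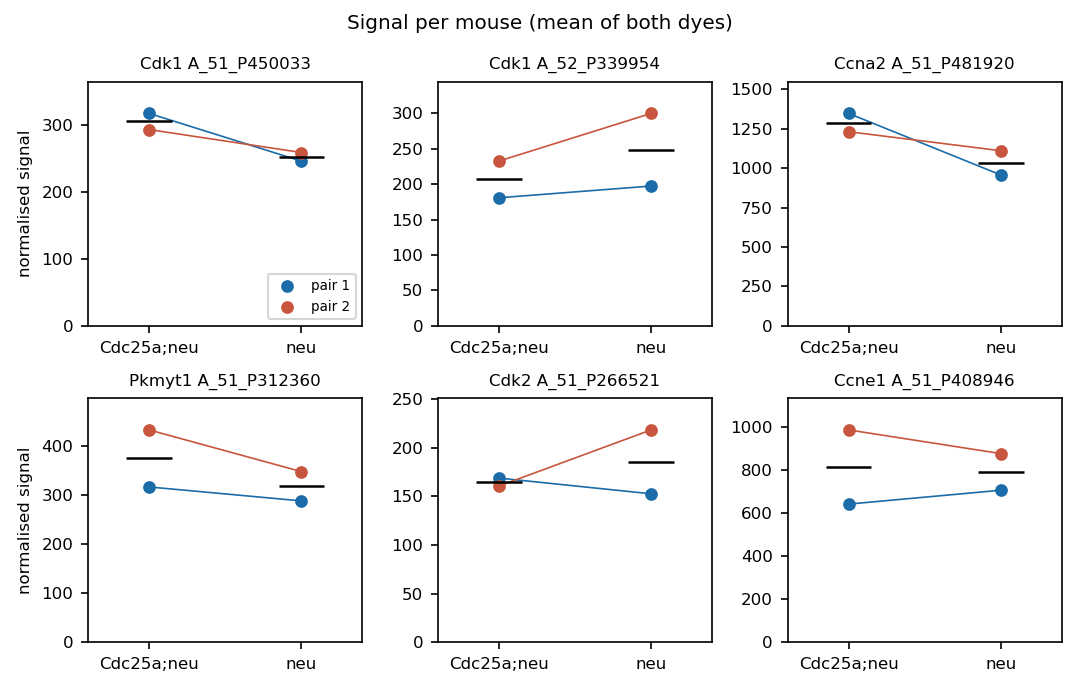
Normalised signal (vertical axis, linear, from 0) in Cdc25a;neu mice on the left and neu mice on the right, for 6 probes, with lines joining the mice hybridised together and black bars for the group mean (n = 2 mice each). In both pairs the Cdc25a;neu mouse is the higher for Cdk1 probe A_51_P450033, Ccna2 and Pkmyt1 and the lower for Cdk1 probe A_52_P339954, and the lines of the pairs slope in opposite directions for Cdk2 and Ccne1.

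Across the 11 probes named for the genes, 5 were higher in Cdc25a;neu on all 4 arrays (Cdc25c, Pkmyt1, Cdk1 A_51_P450033, Cdk2 A_52_P651298 and Ccna2), against 14.1% of all kept probes. The probe Cdk1 A_52_P339954 was lower on all 4, as were 12.6% of all kept probes. Both Cdc25a;neu mice lay above both neu mice for 2 of the 11, Cdk1 A_51_P450033 and Ccna2, against 8.46% of all kept probes, and below for 0, against 11.4%. In both pairs 6 of the 11 had a positive ratio and 1 a negative one, against 31.2% and 28.5% of all kept probes. The median log2 ratio of the 11 probes was 0.07 in pair 1 and 0.08 in pair 2, and over all kept probes it was 0.0037 and 0.0031. No member reached 0.25 on the log2 scale in each pair, in either direction, with the same sign on all 4 arrays, the condition set for naming genes of like pattern, so none is named.

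Other genes of the pathway were listed by role, each read by its brightest kept probe. Of 59 measured of 67 listed genes 0 passed the adjusted threshold. An unadjusted p under 0.05 was found for 9 (15.3%), against 3161 (9.68%) of all 32655 measured genes or transcripts. That background is not known genes alone: 20315 of 41174 probes outside controls matched no gene symbol and stand under their array name. Of the 59 listed genes, 13 were higher on all 4 arrays and 5 lower, against 14.7% and 12.4% of all measured genes or transcripts. The list with the most genes higher on all 4 arrays was that of other CDK1 and CDK2 partners, with 6 of 9 higher and 0 lower. Its median log2 ratio was 0.14 in pair 1 and 0.21 in pair 2, where the median of all measured genes or transcripts was 0.005 in each pair. Among the 6 higher genes, Cdk7 had 0.22 on its brightest probe and -0.11 on the other. Ccna1, also among the 6, had 0.07 at a low mean log2 signal of 6.65.

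Within that list Ccnb2, a B cyclin of CDK1, had log2 ratios of 0.72 and 0.40 in pairs 1 and 2, with a mean of 0.56 (limma adjusted p = 0.502). Cks1b, a small subunit that binds CDKs, had 0.55 and 0.56, with a mean of 0.55 (limma adjusted p = 0.453). Cks2, its relative, had a mean of 0.45 on its brightest probe and 0.38 on the other. The 3 are named because they lay furthest from 0 among the genes of this list with 1 sign on all 4 arrays. None of them passed the adjusted threshold.

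Kinases that act on CDC25 or on the inhibitory site of CDKs were higher on all 4 arrays in 5 of 15 measured genes and lower in 1. The shares over all measured genes or transcripts were 14.7% and 12.4%. Plk1, the polo kinase that promotes CDC25 activity and the removal of WEE1, had log2 ratios that averaged 0.37 ± 0.18 over the pairs (SD, n = 2), with a limma adjusted p of 0.506. Melk had 0.31 on its brightest probe and -0.05 on the other, and Mark3, a kinase that phosphorylates CDC25C, had -0.26 and -0.06. The median of the list was 0.01 in pair 1 and 0.03 in pair 2, and Wee1 and Atr had no kept probe under their symbols.

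The 14-3-3 proteins, which hold phosphorylated CDC25 inactive, had a median of 0.10 in pair 1 and -0.16 in pair 2, with 1 of 7 higher on all 4 arrays. That gene, Ywhae, had 0.28 on its brightest probe and -0.28 on the other. Genes of CDC25 and cyclin turnover had medians of -0.03 and -0.06, with 0 of 9 higher and 1 lower: Fbxw7, which marks cyclin E for destruction, had -0.26 on its brightest probe and 0.01 on the other. Beside both lists, 14.7% of all measured genes or transcripts were higher and 12.4% lower on all 4 arrays.

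Phosphatases that oppose CDK1 and their regulators had medians of -0.02 in each pair, with 0 of 7 higher and 1 lower on all 4 arrays. The lower gene was Ensa, an inhibitor of the phosphatase PP2A, with -0.45 on its brightest probe and -0.09 on the other. Transcription factors of CDC25 and cyclin genes had medians of 0.04 and -0.05, with 1 of 12 higher (Foxm1, 0.09) and 2 lower (Tfdp2, -0.21, and Lin9, -0.03). Here too the shares over all measured genes or transcripts were 14.7% higher and 12.4% lower.

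**Figure D3:**
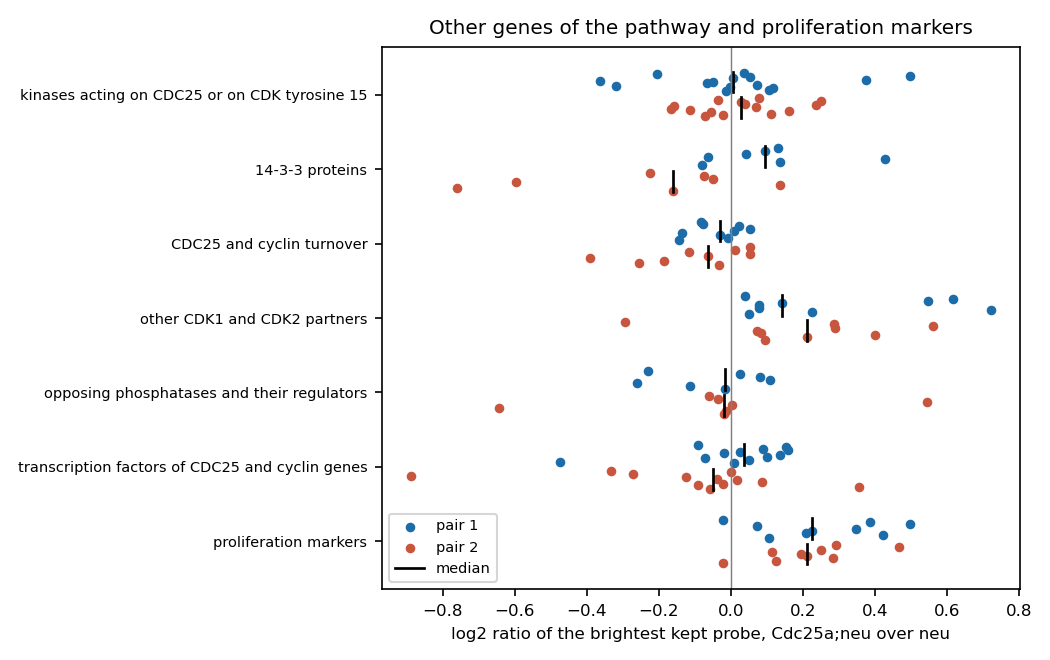
Log2 ratio (Cdc25a;neu over neu, horizontal axis) of each measured gene of the 6 pathway lists and of the proliferation markers, as 1 point per gene in pair 1 and 1 in pair 2, with a bar at the median of each. The other CDK1 and CDK2 partners and the proliferation markers lie mostly right of 0 in both pairs, with medians of 0.14 and 0.21 for the partners and 0.23 and 0.21 for the markers.

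Proliferation markers, each read by its brightest probe, averaged 0.04 to 0.43 over the pairs, positive like Cdk1 A_51_P450033 and Ccna2. The other Cdk1 probe, A_52_P339954, went the opposite way, at -0.25. Of 9 markers measured, 7 were higher in both pairs, while Top2a was -0.02 in pair 1 and Aurka -0.02 in pair 2. On all 4 arrays 6 were higher and 0 lower, beside 14.7% and 12.4% of all measured genes or transcripts. Of the list, 3 (Plk1, Ccnb1 and Aurka) also stand in the pathway lists. The summed signal of the 9 markers was 11902 and 12217 in Cdc25a;neu mice, against 9886 and 10964 in neu mice. Tk1, a thymidine kinase of DNA synthesis, had log2 ratios that averaged 0.43 ± 0.06 over the pairs (SD, n = 2), with a limma adjusted p of 0.453. The part of dividing cells in the values of Cdk1, Ccna2 and the CDK partners was not tested.

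The tumours carried mammary epithelium markers in every mouse, with summed signals over 7 genes of 41649 and 44948 in Cdc25a;neu mice, against 43811 and 46974 in neu mice. Krt18 and Krt8 carried most of that sum, with mean log2 signals of 14.49 and 13.88, where Epcam, the next, had 11.94. On all 4 arrays Epcam (mean log2 ratio -0.34) and Krt18 (-0.16) were lower. Krt8 was higher, at 0.15 on its brightest probe and 0.04 on the other. Of the epithelium markers, Krt19 was not well above background on every array in Cdc25a;neu. Among fat cell markers 5 of 6 were lower in Cdc25a;neu on all 4 arrays, with summed signals of 1635 and 2350 in Cdc25a;neu mice, against 6407 and 17078 in neu mice, and the fat marker not well above background on every array in Cdc25a;neu was Cfd. Of all measured genes or transcripts, 14.7% were higher and 12.4% lower on all 4 arrays. Skeletal muscle markers (5 of 6 measured) summed to 914 and 1080 in Cdc25a;neu mice, against 995 and 3784 in neu mice. Macrophage markers (5 of 5) summed to 7004 and 34048 in Cdc25a;neu mice, against 9200 and 9230 in neu mice. Lyz2 carried that sum, with a log2 ratio in pair 2 of 2.03 on its brightest probe and 0.77 on its other probe. The other 4 markers had 0.15 to 0.52 in that pair. Fibroblast markers (5 of 5) were lower on all 4 arrays in 3, with sums of 1369 and 6027 in Cdc25a;neu mice, against 1875 and 3418 in neu mice. Col1a1 went the other way in pair 2, with a log2 ratio of 1.60, and its mean was 0.62 on this probe and 0.27 on the other. Endothelium markers (5 of 5) summed to 633 and 1098 in Cdc25a;neu mice, against 585 and 992 in neu mice, and T cell markers (4 of 5) to 1584 and 1515 in Cdc25a;neu mice, against 1528 and 1461 in neu mice. Cd3e, with a mean log2 signal of 10.25, carried most of the T cell sum. Itgam of the macrophage, Vwf and Pecam1 of the endothelium and Pdgfra of the fibroblast markers were not well above background on every array. Neu mouse 2 had the highest sums for fat and muscle, and Cdc25a;neu mouse 2 those for macrophages and fibroblasts. Of the 17 member probes, the highest signal was that of Cdc25a;neu mouse 1 for 7, of Cdc25a;neu mouse 2 for 5 (Pkmyt1 and both Ccne1 probes among them), of neu mouse 1 for 0 and of neu mouse 2 for 5 (Cdk1 A_52_P339954 and Cdk2 A_51_P266521 among them). The part of these other cell types in the member values was not tested.

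**Figure D4:**
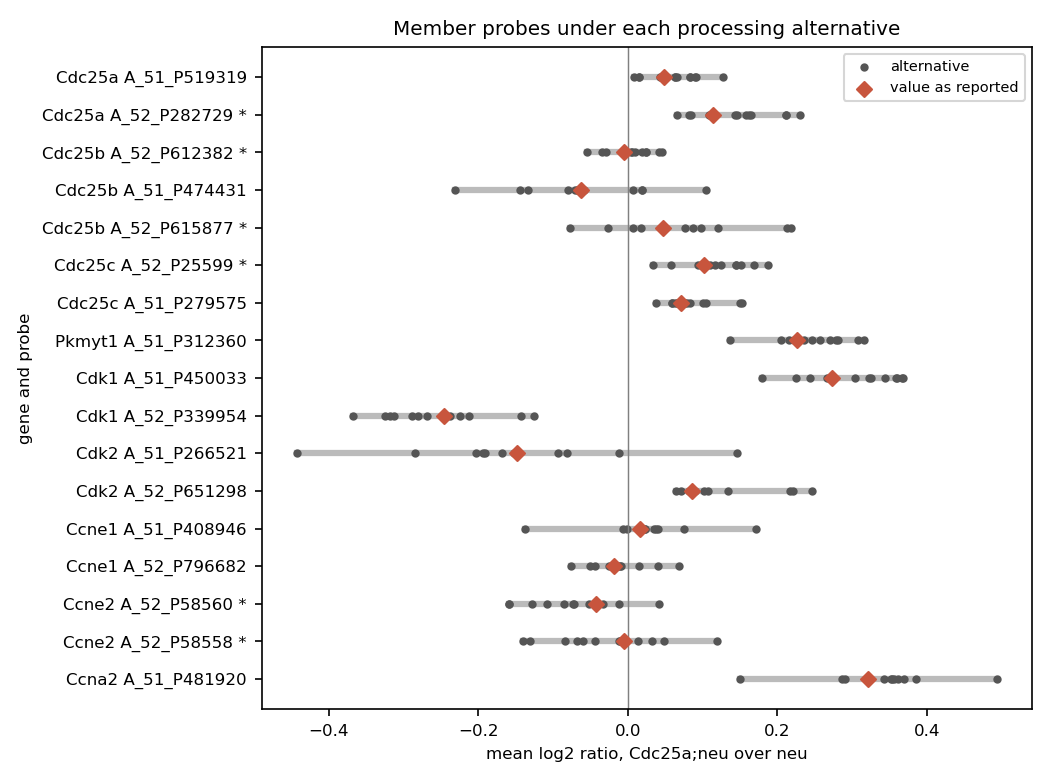
Mean log2 ratio (Cdc25a;neu over neu, horizontal axis) of the 17 probes as reported (diamond) and under each alternative (points, joined by a bar over their range). The alternatives are other processing, an array left out, or a pair left out. The ranges of Cdk1 A_51_P450033 (0.18 to 0.37), Pkmyt1 (0.14 to 0.32) and Ccna2 (0.15 to 0.49) lie right of 0. That of Cdk1 A_52_P339954 (-0.37 to -0.13) lies left. Both ends of these ranges are the values of the single pairs, so they restate the signs of the pairs. The ranges of every Cdc25b, Ccne1 and Ccne2 probe and of Cdk2 A_51_P266521 cross 0. For Cdk2 A_51_P266521 this happens only with pair 2 left out.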

How the data were processed

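The deposited scanner output gives, per the file headers, intensities of each spot in green (Cy3) and red (Cy5), their background medians, and log10 ratios of red over green made by Agilent Feature Extraction 7.5.1. The submitters' processing notes name version 7.2. The authors' deposited value table holds natural log ratios of red over green, as found from slopes of 2.27 to 2.29 against the scanner's log10 ratio (2.3 for natural logs, r of 0.982 to 0.992). Its column medians were 0.0209, 7e-04, 0.0209 and 0.0078, its centring is unknown, and it served as an alternative. The 4 arrays carried 41534 spots each. The share of spots well above background ran from 78.5% to 92.2% for the green channel and from 82.7% to 87.9% for the red one, and the number of arrays limits the precision.

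Intensities were corrected by normexp (offset 50) and normalised by loess within arrays, with control spots at weight 0 and outlier-flagged spots removed. Spots of a probe were averaged, and ratios were turned to Cdc25a;neu over neu by the label dyes, then averaged within a pair. The mean of 2 pair ratios was tested with limma 3.58.1 (R 4.3.3, eBayes, two-sided, Benjamini-Hochberg at 0.05 over 37174 kept probes), so p-values rest on n = 2 pairs. The pairs come from the shared arrays. Signals for each mouse are channel values after Aquantile scaling. Each array is its own slide, so slide was not a batch that could be fitted. In simulated data for this comparison with 37174 probes, 0 of 100 changed by 1 and 86 of 100 changed by 2 (log2) were recovered, with 15 false calls. Those false calls are a larger share of the calls than the nominal 0.05. The simulation drew the spread of each probe independently of its change, so its recovery need not hold for these data. In the data the brightest Fabp4 probe, with a mean log2 ratio of -2.71, had a limma adjusted p of 0.453. For each list the up to 3 genes furthest from 0 with the same sign on all 4 arrays were eligible to be named. The members, lists and rules were chosen with earlier results of these data known. Gene names come from the array and, for 18421 probes, from accessions in a RefSeq table.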

Additional observations from a re-analysis of the deposited data

How the results depend on the processing

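Of the 11 member probes, 0 passed the adjusted threshold under each alternative that gives a test: other background corrections, normalisations, filters, the deposited value table, eBayes with trend and robust, the brightest probe of each gene (which tests 7 of the 11), separate channels, the 4 arrays as units, or leaving out any array. Over all kept probes 1109 passed with median centring (606 higher), with a lowest limma adjusted p of 2.1e-57 from 2 pairs. With 4 arrays and the pair as a random block 950 passed (379 higher). The estimated correlation within a pair was -0.009, so this fit counted dye-swapped arrays of the same RNA as nearly independent. Its calls therefore do not rest on n = 2 pairs. Over the pathway lists 3 of 59 passed with median centring, beside 1109 of 37174 probes. With the random block 2 of 59 passed, beside 950 of 37033 probes. Why median centring gave its calls was not tested. The lowest adjusted p of a member was 0.111, for Cdk1 A_51_P450033 with the random block, and the highest over its alternatives was 1. Without the replicate block, taking the mice as unpaired, 0 probes passed (1147 at an unadjusted p under 0.05), and the lowest adjusted p of a member was 1. The count at an unadjusted p under 0.05 ran from 191 with trend and robust to 6599 with the random block. Of 297 values of the 17 probes under the alternatives, 43 moved by more than the SD between pairs. Many of the 297 could not move that far. Alternatives that change only the filter or the test leave the ratio as it is. Leaving out a pair always shifts the mean by less than that SD. Of the probes, 9 kept their sign under every alternative and 8 changed it under at least 1. Leaving out a pair gave 0.18 and 0.37 for Cdk1 A_51_P450033, 0.15 and 0.49 for Ccna2, 0.14 and 0.32 for Pkmyt1, and -0.44 and 0.15 for Cdk2 A_51_P266521, with no test. The median of all probes lay between -0.0019 and 0.0073 in these settings. Only 2 pairs limit what could be called, and the Ccne2 probes and Cdc25b A_52_P615877 are also limited by signal near background.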
